A study of Rattus norvegicus with 24 samples.

Results

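The genes described here encode the heat shock proteins and the molecular chaperones that work with them, measured in the dorsal striatum of rats after injections of methylenedioxypyrovalerone (MDPV), a stimulant of the cathinone family that acts as an inhibitor of dopamine and noradrenaline reuptake. They were taken by gene name: array probes for genes whose symbols begin with Hspa, Hspb, Hspd, Hspe, Hsph, Hsp90, Dnaja, Dnajb or Dnajc, together with the transcription factors Hsf1 and Hsf2 and the co-chaperone Bag3. Of 82 such genes on the array, 71 gave a signal well above local background on at least 50% of the arrays of some treatment group and were kept, out of 20902 genes kept in all. Each gene was represented by its brightest probe. The 11 left out were Dnajb7, Dnajb8, Dnajc5b, Dnajc5g, Hspa1b, Hspa1l, Hspb3, Hspb7 and the Hspd1 pseudogenes Hspd1-ps13, Hspd1-ps14 and Hspd1-ps20. Choosing by name also took in genes that are not chaperones in the strict sense: Hspb11, a component of intraflagellar transport, Hspbp1 and Hspbap1, which bind HSP70 and a small heat shock protein, and the pseudogenes Hspd1-ps3 and Hspd1-ps6.

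Groups of male Long Evans rats aged 80 to 90 days were compared, and every rat had 1 intraperitoneal injection on each of 5 days. Chronic rats had MDPV at 1 mg/kg on all 5 days. Acute rats had saline on 4 days and MDPV at 1 mg/kg on the last. Saline rats had saline on all 5 days. The rats were killed 24 h after the last injection, and all groups had the same number of injections. Total RNA of the left dorsal striatum, dissected by hand from the frozen brain, was hybridised to 24 one-colour Agilent arrays, 8 per group, on 3 slides that each held all 3 groups. Arrays whose titles share a letter from A to F were averaged, 2 pairs per group. The arrays titled H1 to H12, 4 per group, were kept single. This gave 18 samples, 6 per group. That paired arrays are of the same RNA or animal is not given by the labels. The consensus correlation of the pairs in limma was -0.366, so paired arrays were no more alike than other arrays of their group. The labels do not say that the samples of a group are separate animals, and the p-values measure the spread between these samples, which may in part be technical.

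Heat shock proteins bind unfolded or unstable stretches of other proteins and hold, refold or hand them on for degradation. HSP70 proteins do this in cycles of ATP hydrolysis that J proteins (the Dnaj genes) start and nucleotide exchange factors such as Hsph1 and Bag3 end. HSP90 proteins finish the folding of kinases and steroid receptors, small heat shock proteins hold unfolded clients without ATP, and the mitochondria and the endoplasmic reticulum have chaperone sets of their own. On heat or other proteotoxic stress, Hsf1 binds heat shock elements in the promoters of the cytosolic and some mitochondrial chaperone genes, whereas the endoplasmic reticulum set answers to the unfolded protein response. In neurons the constitutive HSP70 Hspa8 also uncoats clathrin-coated vesicles with the J protein Dnajc6, and Dnajc5 keeps synaptic vesicle proteins folded.

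Promoters of 3 genes are shown because they hold the motifs by which the heat shock and unfolded protein responses are recognised, and because the pair Hspd1 and Hspe1, described below, shares one of them. The sequences are the 250 bases before the start site in RefSeq on build GRCr8. The Hspe1 promoter is at chr9:64084077-64084326 on the plus strand, the Hsph1 promoter at chr12:10427118-10427367 on the plus strand, and the Hspa5 promoter at chr3:38452766-38453015 on the plus strand. In the Hspe1 and Hsph1 promoters, capitals mark heat shock elements of 3 units, and in the Hspa5 promoter they mark the endoplasmic reticulum stress element.
Hspe1: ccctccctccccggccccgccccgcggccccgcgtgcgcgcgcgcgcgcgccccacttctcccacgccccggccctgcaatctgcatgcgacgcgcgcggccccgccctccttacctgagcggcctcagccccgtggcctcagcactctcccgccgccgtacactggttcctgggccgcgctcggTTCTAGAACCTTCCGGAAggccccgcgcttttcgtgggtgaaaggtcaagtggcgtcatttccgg
Hsph1: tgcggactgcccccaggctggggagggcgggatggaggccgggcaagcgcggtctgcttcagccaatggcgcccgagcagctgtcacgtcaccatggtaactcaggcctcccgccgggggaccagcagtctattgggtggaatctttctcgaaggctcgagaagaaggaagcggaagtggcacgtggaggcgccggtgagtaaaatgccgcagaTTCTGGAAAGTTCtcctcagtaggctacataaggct
Hspa5: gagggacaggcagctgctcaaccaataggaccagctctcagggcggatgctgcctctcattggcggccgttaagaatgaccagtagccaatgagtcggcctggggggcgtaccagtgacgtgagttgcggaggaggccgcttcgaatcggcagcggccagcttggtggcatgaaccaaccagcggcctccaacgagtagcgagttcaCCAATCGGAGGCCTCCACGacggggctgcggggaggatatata
A promoter window of 300 bases, 250 before and 50 after the start site, was matched to 55 of the 71 genes, and 16 had no match. The heat shock element of 3 units was searched on both strands as GAANNTTCNNGAA or TTCNNGAANNTTC. It was found in 5 of the 55 windows (9.09%), those of Dnaja1, Hspa8, Hspd1, Hspe1 and Hsph1, against 0.798% of 33469 windows of all genes. The 2-unit form, GAANNTTC or TTCNNGAA, which lies inside every 3-unit match, was found in 16 of 55 windows (29.1%), against 15.9% of all. The endoplasmic reticulum stress element, CCAAT and CCACG with 9 bases between them on either strand, was found in the windows of Hspa5, Hsp90b1 and Dnajc3 (5.45% of 55, against 0.0657% of all). Hspd1 and Hspe1 are transcribed away from each other from start sites 290 bases apart, and their windows share 211 bases. The shared bases hold 2 overlapping elements, at -65 to -53 and -60 to -48 from the Hspe1 start site and at -242 to -230 and -237 to -225 from the Hspd1 start site. In Hsph1 the element lies at -36 to -24, and in Hspa5 the stress element lies at -43 to -25. These matches are descriptions of letters in a window, and no binding was measured here.

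The values are log2 signals relative to the 75th percentile of the array, so a value of 0 is the level that 25% of array probes exceed, and levels are compared between samples of a gene, not between genes. On an array, 50.7% to 71.3% of spots stood well above background and none was saturated. The median spot was 6.45 to 10.4 times its local background. Transcripts of striatal projection neurons (Ppp1r1b, Rgs9 and others) averaged 2.18 to 3.09 in 17 of the 18 samples. Saline sample 4 stood apart, with 1.49 for that list, 0.34 for hypothalamic transcripts (Avp, Oxt, Pmch and others, -3.39 to -2.54 in the other samples) and -0.13 for transcripts of thalamus and septum (-2.44 to -1.60 in the others). Some results that rest on this sample are given with and without it. In tissue RNA, fewer cells of a type and less RNA per cell cannot be told apart.

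None of the 71 genes differed between groups at the threshold used, an adjusted p under 0.05 by limma with Benjamini-Hochberg adjustment over all 20902 genes. The smallest adjusted p among them by limma was 0.999 for chronic against saline, 1.00 for acute against saline and 0.960 for chronic against acute. No gene of the array passed in any of the 3 comparisons, nor in an F test over the 3 groups (0% of 20902 each). At an unadjusted p under 0.05, 0 of the 71 stood out for chronic against saline, where 2.87% of all genes did, 0 for acute against saline (1.59% of all), 1 for chronic against acute (2.48% of all) and 0 in the F test (1.71% of all). The 1 gene was Hspd1-ps3, a pseudogene of Hspd1. Complete separation of the 6 samples of one group from the 6 of the other was seen for Hsph1 alone, chronic against acute, where 0.182% of all genes separated. None of the 71 separated chronic from saline (0.0478% of all genes) or acute from saline (0.0287% of all).

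The differences were small as well as uncalled. Relative to saline, 44 of the 71 genes were higher and 27 lower in chronic rats, with a median difference of 0.03, where the median over all genes was 0.02. Acute rats had 36 higher and 35 lower than saline, with a median of 0.01 against -0.00 over all genes. Chronic rats had 45 higher and 26 lower than acute, with a median of 0.06 against 0.02 over all genes. In that order of comparisons 62.0%, 50.7% and 63.4% of the 71 were higher, against 56.5%, 49.1% and 56.5% of all genes. These shares over all genes are also the background of the class counts below. With normexp background correction in place of the scanner's, 36 were higher and 35 lower for chronic against saline, and with each array centred within classes of probe GC content 37 were higher and 34 lower. Normexp also changed the counts over all genes: more were lower than higher in that comparison, as given at the end. Within slides the median for chronic against saline was 0.113, 0.00171 and -0.0154 on slides 1, 2 and 3. For acute against saline it was 0.0996, 0.0249 and -0.0391, and for chronic against acute it was 0.0184, -0.0569 and 0.00242. The comparisons of chronic and of acute rats with saline share the saline samples. The 95% interval of the difference lay within 1.5-fold in either direction for 64 of 71 genes in chronic against saline, 68 in acute against saline and 66 in chronic against acute. It lay within 2-fold for 70 in each, and Dnajc30 was the exception. Genes whose interval reached beyond 1.5-fold in some comparison were Dnajb5, Dnajb13, Dnajc13, Dnajc22, Dnajc28, Dnajc30, Hspa2 and Hspb9.

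The 5 genes with the smallest unadjusted p in each direction, all uncalled, were of several classes. For chronic against saline they were Hspa2, Dnaja4, Dnajb11, Dnajb4 and Dnajc30 among those higher and Dnajc9, Dnajc25, Hspa8, Hsf2 and Dnajc18 among those lower, with differences between -0.21 and 0.62. For acute against saline they were Dnajc10, Dnaja3, Dnajc24, Dnajc16 and Dnaja2 among those higher and Dnajb12, Hspa4, Hspb8, Hsp90aa1 and Hspa1a among those lower, with differences between -0.19 and 0.14. For chronic against acute they were Hspd1-ps3, Dnajb1, Hsph1, Hspa12a and Hsp90ab1 among those higher and Dnajc24, Dnajc9, Hsf2, Dnajc22 and Dnajc25 among those lower, with differences between -0.30 and 0.21.

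**Figure D1:**
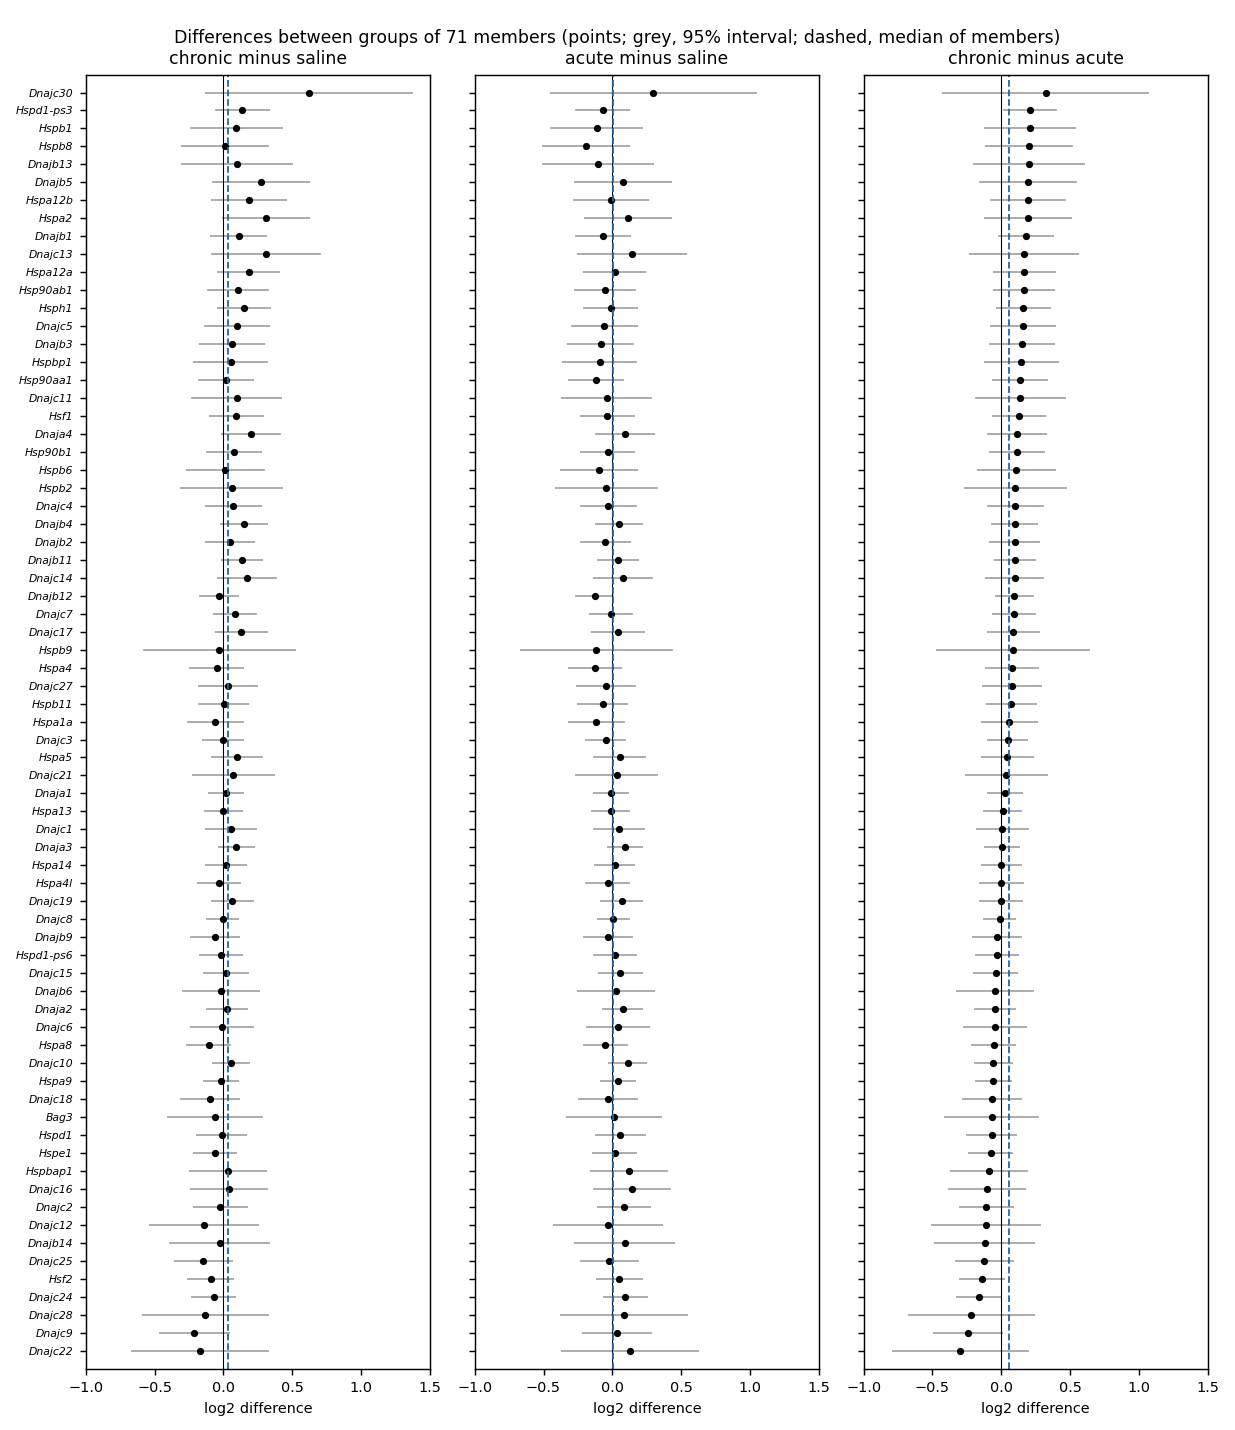
Difference between group means (log2, horizontal axis) for the 71 genes in each of 3 comparisons, with 95% intervals from limma; the genes run in the order of chronic minus acute and the dashed line is the median of the 71. Every interval crosses 0 apart from that of Hspd1-ps3 for chronic minus acute, and the widest belong to Dnajc30, Dnajc22 and Hspb9, 3 genes near background.

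Among the cytosolic HSP70 and HSP110 genes, 9 of 12 were measured and none passed the test. Hspa8, the constitutive HSP70 that also uncoats clathrin, ranged from 5.78 to 6.16 around a median of 6.01 in chronic rats, from 5.98 to 6.18 around 6.05 in acute rats and from 5.91 to 6.26 around 6.14 in saline rats. The groups overlapped, and the chronic mean differed from saline by -0.11 (SE 0.08, unadjusted p = 0.182 by limma). The sign depended on the scaling: with quantile normalization or the authors' own values the same difference was 0.08. Hspa1a, the stress-inducible HSP70, had a lowest, median and highest value of -3.34, -3.25 and -2.96 in chronic rats, -3.48, -3.23 and -3.13 in acute rats and -3.31, -3.21 and -2.76 in saline rats. Its highest value was saline sample 4, and the differences were -0.06 for chronic against saline and -0.12 for acute against saline, or 0.02 and -0.04 without that sample. Hspa1a has a near-identical copy, Hspa1b, and whether the probe separates them was not tested.

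Hsph1, the HSP110 that exchanges nucleotide for HSP70, was the member with complete separation. Its probe lies at chr12:5809732-5809791 on build rn4. The 6 chronic samples lay between -1.11 and -0.95 (median -1.08), and the 6 acute samples lay lower, between -1.54 and -1.13 (median -1.16). The separation holds only for the averaged samples: over single arrays the lowest chronic value was -1.50 and the highest acute value was -0.87, so the arrays of the 2 groups overlapped. The saline samples spanned both, from -1.56 to -0.94 (median -1.22). The lowest chronic and the highest acute sample were nearly equal, and the mean difference of 0.16 (SE 0.09, 95% interval -0.04 to 0.36) had an unadjusted p of 0.104 and an adjusted p of 0.960 by limma. Within slides the difference was 0.12, -0.18 and 0.33 on slides 1, 2 and 3. Against saline, Hsph1 differed by 0.15 in chronic rats (SE 0.09, unadjusted p = 0.131 by limma) and by -0.01 in acute rats.

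Hspa2, an HSP70 best known from spermatogenic cells, gave the smallest unadjusted p of the 71 for chronic against saline. It averaged -3.47 ± 0.35 in chronic rats, -3.66 ± 0.18 in acute rats and -3.78 ± 0.26 in saline rats (SD, n = 6 each), a difference of 0.31 for chronic against saline (SE 0.15, unadjusted p = 0.0576 and adjusted p = 0.999 by limma). On slide 3 alone the difference was -0.59, and with normexp background correction it was -0.07. Hspa12a, an atypical HSP70 abundant in brain, averaged 0.72 ± 0.20 in chronic rats, 0.55 ± 0.12 in acute rats and 0.53 ± 0.22 in saline rats. Hspa4, a second HSP110, was 1.40 ± 0.17 in chronic rats, 1.32 ± 0.15 in acute rats and 1.45 ± 0.14 in saline rats. In both, the groups differed by less than the SD of at least 1 group.

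Both cytosolic HSP90 genes were highest on average in chronic rats and lowest in acute rats, and no difference between groups passed the test. With arrays centred within GC classes, 1 of the 2 was higher in chronic than in saline rats. Hsp90ab1, the constitutive form, had a lowest, median and highest value of 2.88, 3.19 and 3.37 in chronic rats, 2.77, 3.02 and 3.16 in acute rats and 2.81, 3.01 and 3.35 in saline rats. Hsp90aa1, the inducible form, averaged 4.18 ± 0.15 in chronic rats, 4.04 ± 0.18 in acute rats and 4.15 ± 0.15 in saline rats. The chronic and acute samples of both genes overlapped. The chronic against acute difference was 0.16 for Hsp90ab1 (SE 0.11, unadjusted p = 0.148 by limma) and 0.14 for Hsp90aa1 (SE 0.10, unadjusted p = 0.173 by limma). A second bright probe for Hsp90aa1 gave -0.13 for that comparison, with the opposite sign. A second bright probe for Hsp90ab1 gave 0.23 for it. For chronic against saline that probe gave 0.002, where the chosen Hsp90ab1 probe gave 0.11.

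Of the cytosolic class A and B J proteins, which deliver clients to HSP70, 10 of 12 were measured. Chronic rats had 9 of the 10 higher than saline (median 0.08) and 8 of 10 higher than acute (median 0.11), and acute rats had 5 of 10 higher than saline (median 0.01). None passed the test, and with normexp background correction 7 of 10 were higher in chronic rats in each of those comparisons. Dnajb1, the inducible partner of Hspa1a, had a lowest, median and highest value of -0.57, -0.41 and 0.04 in chronic rats, -0.73, -0.51 and -0.31 in acute rats and -0.55, -0.47 and -0.29 in saline rats. The chronic group held the highest sample but overlapped both others, and the difference from acute was 0.18 (SE 0.10, unadjusted p = 0.0804 by limma). Dnaja1, which carries 2-unit and 3-unit elements in its window, was among the steadiest genes, with a median of 1.12 and a highest value of 1.19 in chronic rats, 1.12 and 1.16 in acute rats and 1.08 and 1.20 in saline rats. Dnaja4 differed by 0.20 (unadjusted p = 0.0679 by limma) and Dnajb4 by 0.15 (unadjusted p = 0.09 by limma) between chronic and saline rats. Dnaja2, another class A J protein, differed by 0.07 between acute and saline rats.

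Of 8 small heat shock proteins listed, 5 were measured: Hspb1, Hspb2, Hspb6, Hspb8 and Hspb9. All 5 were lower on average in acute than in saline rats, with a median difference of -0.11, and all 5 were higher in chronic than in acute rats, with a median of 0.11. These are directions of averages, none of which passed the test, and with normexp background correction 4 of the 5 were higher in chronic than in acute rats. Hspb1, which protects the cytoskeleton and is induced by heat, averaged -1.78 ± 0.23 in chronic rats, -1.99 ± 0.23 in acute rats and -1.88 ± 0.38 in saline rats. Hspb8, the partner of Bag3 in selective autophagy, averaged -3.65 ± 0.24 in chronic rats, -3.85 ± 0.14 in acute rats and -3.66 ± 0.38 in saline rats. The largest difference from saline among the 5 was -0.19 for Hspb8 in acute rats (SE 0.15, unadjusted p = 0.217 by limma). Over the 18 samples the mean level of these genes moved with that of endothelial and mural transcripts (r = 0.63), of astrocyte transcripts (r = 0.62) and with the slope on probe GC content described below (r = 0.71). The part of these in the group averages was not tested.

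Bag3, which links HSP70 to autophagy through Hspb8, had a lowest, median and highest value of -1.70, -1.51 and -1.28 in chronic rats, -1.63, -1.48 and -1.14 in acute rats and -1.81, -1.56 and -0.62 in saline rats. Its probe lies at chr1:187804666-187804725 on build rn4. The saline SD of 0.44 came from saline sample 4, which was the highest of the 18. Differences were -0.06 for chronic against saline and 0.01 for acute against saline, or 0.11 and 0.18 without that sample. Hsf1, the factor that induces heat shock genes, averaged -0.60 ± 0.14 in chronic rats, -0.73 ± 0.16 in acute rats and -0.69 ± 0.17 in saline rats. Hsf2, a related factor, averaged -1.31 ± 0.12 in chronic rats, -1.17 ± 0.06 in acute rats and -1.22 ± 0.17 in saline rats, a chronic against acute difference of -0.14 (unadjusted p = 0.0991 by limma).

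Of the 11 genes listed as stress-inducible Hsf1 targets, 10 were measured (Hspa1a, Hspa8, Hsph1, Hsp90aa1, Dnaja1, Dnajb1, Hspb1, Bag3, Hspd1 and Hspe1). Chronic rats had 5 of these higher than saline, acute rats had 3 higher than saline, and chronic rats had 6 higher than acute. Median differences were 0.00, -0.03 and 0.04, against 0.02, -0.00 and 0.02 over all genes. For chronic against saline the count depended on the scaling. With arrays centred within GC classes 3 of the 10 were higher (median -0.01). With quantile normalization or the authors' values 6 of the 10 were higher (median 0.03 in each). Averaged over the 10 genes, the samples spanned 0.76 to 0.83 in chronic rats, 0.69 to 0.81 in acute rats and 0.69 to 0.91 in saline rats. The saline samples covered both other groups.

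**Figure D2:**
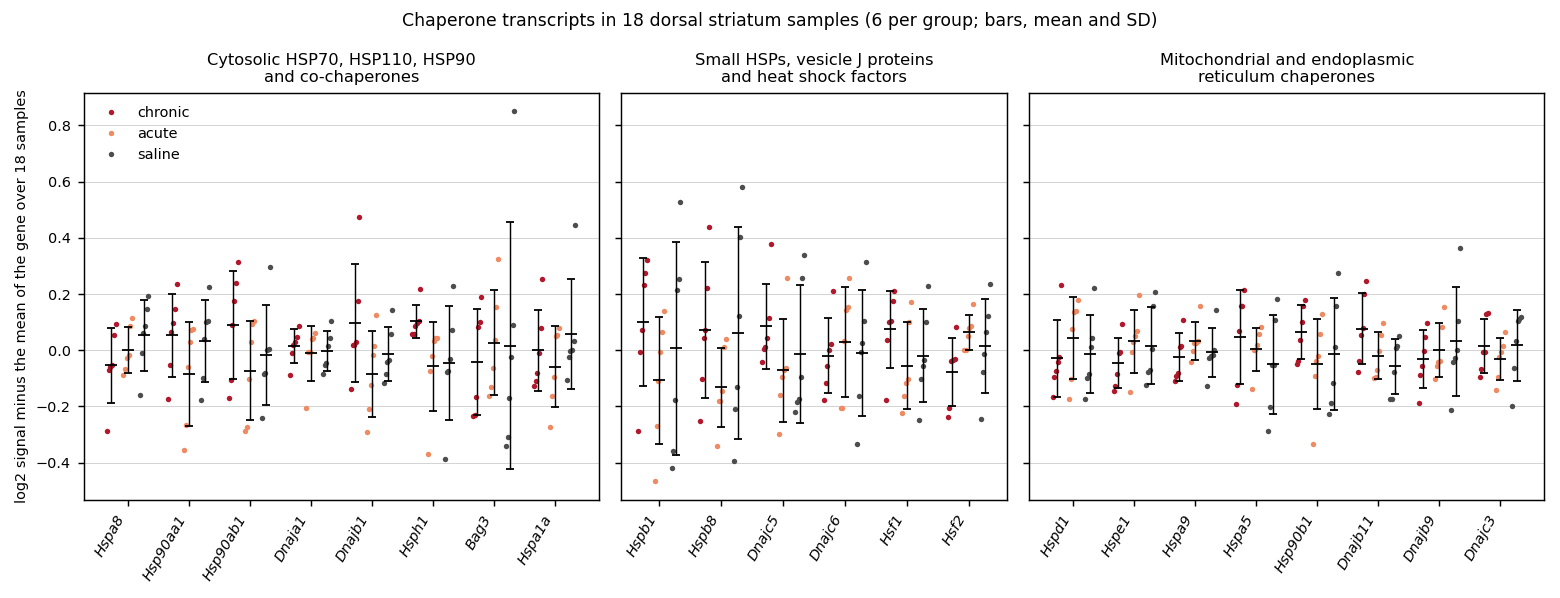
Value of each sample minus the mean of its gene over the 18 samples (log2, vertical axis) for 22 named genes in 3 panels, with chronic, acute and saline samples from left to right, and bars for the group mean and SD. The 3 groups overlap for the genes shown, except that for Hsph1 all 6 chronic samples lie above all 6 acute samples (single arrays overlap), and saline sample 4 is the high point for Bag3 and Hspa1a.

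None of the 8 mitochondrial chaperones passed the test. Hspd1, the chaperonin HSP60 (probe at chr9:53884211-53884270 on build rn4), had a lowest, median and highest value of 1.93, 2.04 and 2.33 in chronic rats, 1.92, 2.20 and 2.27 in acute rats and 1.92, 2.06 and 2.32 in saline rats. Hspe1, the HSP10 lid of that chaperonin (probe at chr9:53898351-53898410), had 2.43, 2.53 and 2.66 in chronic rats, 2.42, 2.61 and 2.77 in acute rats and 2.45, 2.54 and 2.78 in saline rats. Neither gene separated any pair of groups. Hspa9, the mitochondrial HSP70, averaged 1.22 ± 0.08 in chronic rats, 1.28 ± 0.07 in acute rats and 1.24 ± 0.09 in saline rats. Its J protein partner Dnaja3 differed by 0.09 both in chronic and in acute rats against saline, and neither passed the test. A second, dimmer probe of Dnaja3 gave 0.10 and -0.06, and had r = 0.04 with the chosen one. Of the 8 mitochondrial genes, 5 were higher in chronic than in saline rats, 7 were higher in acute than in saline rats (6 with normexp background correction) and 3 were higher in chronic than in acute rats. The widest differences among them were those of Dnajc30, a mitochondrial J protein well above background on 15 of 24 arrays, at 0.62 for chronic against saline, 0.30 for acute against saline and 0.32 for chronic against acute (SE 0.36 each). Chronic sample 7, a single array, was at -3.33 for Dnajc30, and the other chronic samples lay between -6.27 and -4.90. Under other processing settings the chronic against saline difference of Dnajc30 ran from 0.004 to 0.84.

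In the endoplasmic reticulum, all 10 listed genes were measured, and 5 were higher and 5 lower in each comparison with saline. Hspa5 (BiP), the HSP70 of that compartment and the usual readout of the unfolded protein response, had a lowest, median and highest value of 1.59, 1.89 and 1.99 in chronic rats, 1.64, 1.78 and 1.86 in acute rats and 1.49, 1.72 and 1.96 in saline rats. Its probe lies at chr3:13787739-13787798 on build rn4. The groups overlapped throughout, and the chronic against saline difference was 0.10 (SE 0.09, unadjusted p = 0.299 by limma). Hsp90b1, the HSP90 of the compartment, averaged 0.40 ± 0.10 in chronic rats, 0.29 ± 0.16 in acute rats and 0.32 ± 0.20 in saline rats. Dnajb11, the main J protein cofactor of Hspa5, averaged -0.90 ± 0.13 in chronic rats, -0.99 ± 0.08 in acute rats and -1.03 ± 0.10 in saline rats (chronic against saline 0.14, SE 0.07, unadjusted p = 0.0784 by limma). Dnajb9, a J protein induced by endoplasmic reticulum stress, averaged -1.92 ± 0.10 in chronic rats, -1.89 ± 0.10 in acute rats and -1.86 ± 0.19 in saline rats. Dnajc3, an inhibitor of eIF2alpha kinases, averaged -2.36 ± 0.10 in chronic rats, -2.41 ± 0.08 in acute rats and -2.36 ± 0.13 in saline rats. Dnajb12, a membrane J protein, gave the smallest unadjusted p of the 71 for acute against saline, with samples between -1.20 and -0.97 in acute rats and between -1.08 and -0.91 in saline rats (difference -0.13, SE 0.07, unadjusted p = 0.0767 by limma). Dnajc10, a reductase of the compartment, differed by 0.11 in the same comparison (unadjusted p = 0.112 by limma).

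Among the J proteins of vesicles and endosomes, 3 of 5 were measured. Dnajc5 (cysteine string protein), which guards SNARE proteins on synaptic vesicles, averaged -0.40 ± 0.15 in chronic rats, -0.55 ± 0.18 in acute rats and -0.50 ± 0.25 in saline rats. Dnajc6 (auxilin), which recruits Hspa8 to clathrin coats, averaged 0.94 ± 0.13 in chronic rats, 0.99 ± 0.19 in acute rats and 0.95 ± 0.22 in saline rats. The samples of the 3 groups overlapped in both. Among the other 16 J proteins, 7 were higher in chronic than in saline rats, 10 in acute than in saline rats and 6 in chronic than in acute rats. In the same order the counts were 4, 7 and 5 with normexp background correction and 9, 11 and 7 with the authors' values. Dnajc9, a histone chaperone cofactor, averaged -0.73 ± 0.19 in chronic rats, -0.49 ± 0.18 in acute rats and -0.52 ± 0.25 in saline rats (chronic against acute -0.24, SE 0.12, unadjusted p = 0.0602 by limma). Dnajc24, which serves diphthamide synthesis, averaged -1.84 ± 0.16 in chronic rats, -1.68 ± 0.09 in acute rats and -1.77 ± 0.08 in saline rats (chronic against acute -0.16, unadjusted p = 0.0502 by limma). Hspd1-ps3 averaged -1.70 ± 0.17 in chronic rats, -1.91 ± 0.18 in acute rats and -1.84 ± 0.10 in saline rats (chronic against acute 0.21, SE 0.09, unadjusted p = 0.0403 and adjusted p = 0.960 by limma), and whether this probe also detects Hspd1 was not tested.

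Signal was well above background on all 24 arrays for 62 of the 71 (87.3%), against 67.8% of all genes. Their median SD over the 24 arrays was 0.205, or 1.15-fold, against 0.278, or 1.21-fold, over all genes. An SD under 0.2 was seen for 32 of the 71 (45.1%), against 27.1% of all genes. Among genes above background on all arrays the medians were 0.191 for 62 of the 71 and 0.225 for 14163 genes. The steadiest were Dnajc8 (SD 0.0695), Dnaja1 (0.0776), Hspa9 (0.0863), Hspa13 (0.0947) and Dnaja3 (0.0964). The most variable were Dnajc22 (0.659), Dnajc30, Hspb9 (0.576), Dnajb13 (0.483) and Dnajc28 (0.416), in falling order, which were well above background on 16, 15, 14, 18 and 21 of the 24 arrays. Next came Dnajb5 (0.386), Dnajc12 (0.381), Hspa2 (0.349), Hspb2 (0.346) and Dnajc13 (0.338). The largest difference of any of the 71 belonged to one of the dim genes, Dnajc30, at 0.62 (1.54-fold, SE 0.36, unadjusted p = 0.102 by limma) between chronic and saline rats. Chronic sample 7 was at -3.33 for this gene, above the other chronic samples (-6.27 to -4.90).

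Variation across the 18 samples was then described without regard to group. The first principal component of the 71 genes took 27.9% of their variance, and the first component of all other genes took 26.1% of theirs. The 2 components had r = 0.98 with each other over the 18 samples. It moved with the composition of the probes: the slope of a sample's values on the GC content of the probe, over genes outside the 71, ranged from -0.158 to 0.118 log2 per 10 percentage points, and had r = 0.91 with the first component. The slope spanned -0.158 to 0.0748 in chronic samples, -0.126 to 0.0935 in acute samples and -0.0760 to 0.118 in saline samples, so it overlapped between groups. Of the 71 genes, 29 (40.8%) had an absolute r over 0.5 with the slope, and so had 39.2% of all genes. The genes at one end were Hsp90ab1 (r = 0.93 with the component), Hspb6 (0.91), Hspa12a (0.89), Dnajb5 (0.81), Hspb2 (0.81), Dnajb1 (0.78) and Dnajc5 (0.78). At the other end were Hspd1 (-0.90), Dnajc9 (-0.87), Hspe1 (-0.79), Dnajb6 (-0.79) and Hspa4l (-0.75). These values are of the chosen probes, and other probes of some of these genes differed, as given below. Genes with r over 0.5 had a median probe GC content of 46.7%, and those with r under -0.5 had 38.3%. The sorting by probe GC was partial: across the 71, r with the component had r = 0.45 with probe GC content. Dnajc5 and Dnajb1, at the first end, had probes of 30.0% and 36.7% GC. What produced the slope was not tested.

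**Figure D3:**
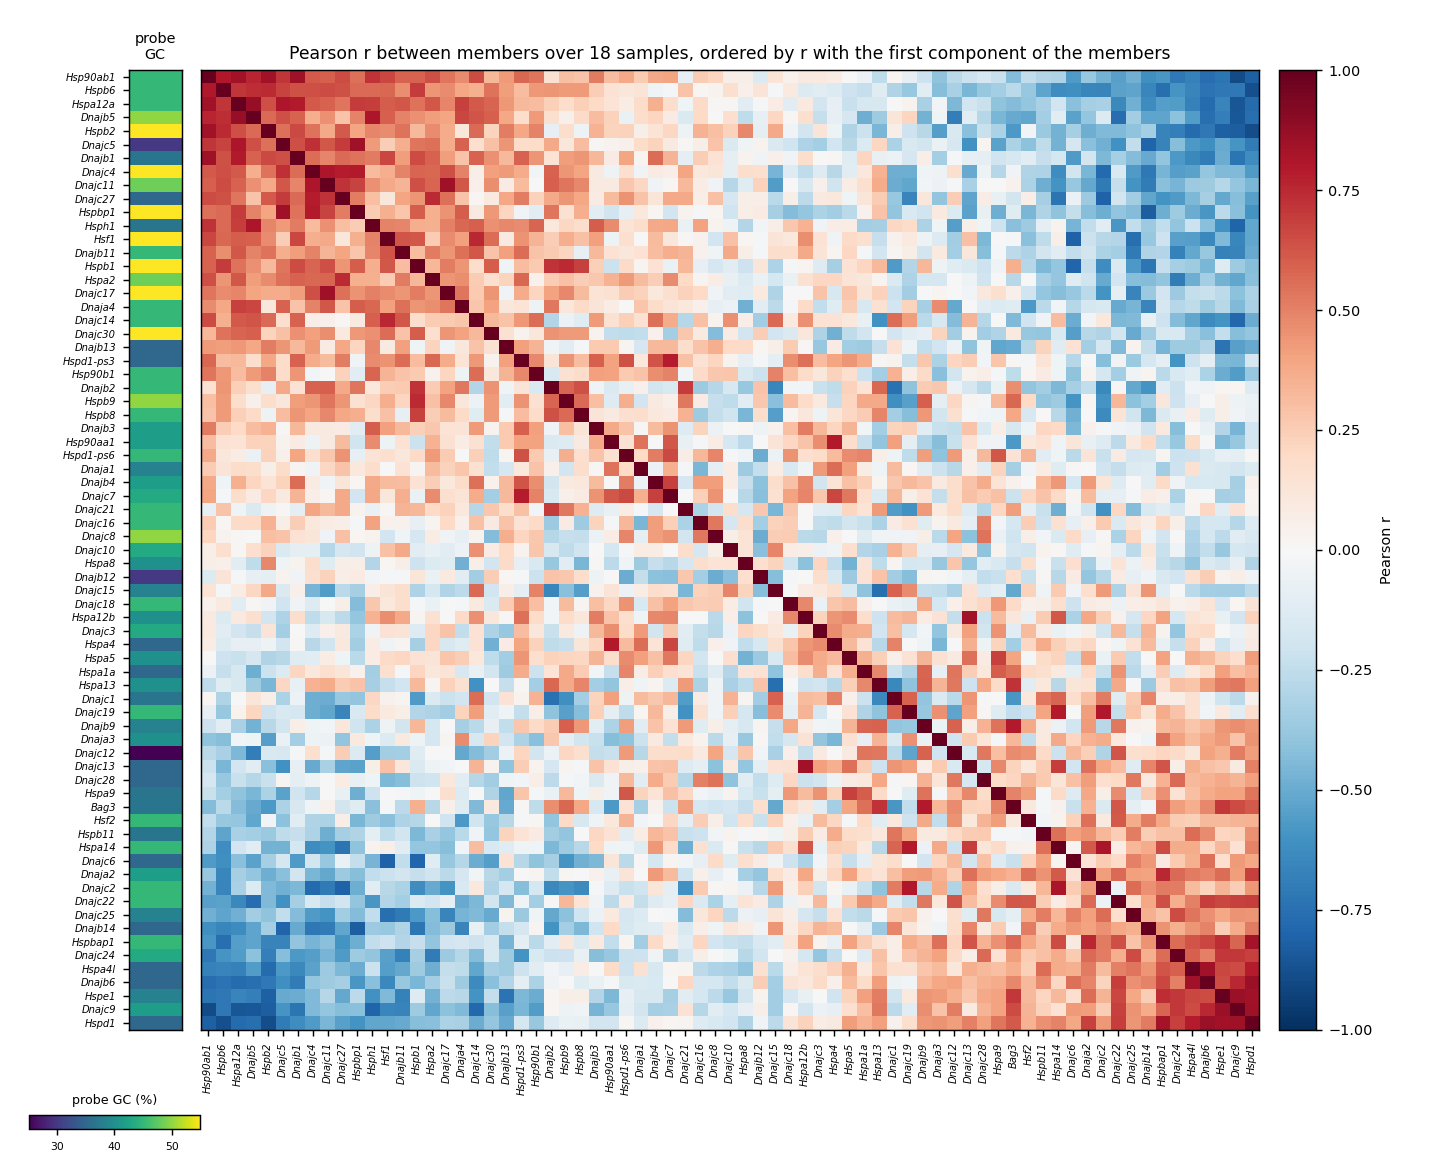
Heat map of Pearson's r between the 71 genes over the 18 samples, ordered by r with the first component of the 71, with a strip of probe GC content. The 20 genes with r over 0.5 with the component and the 13 with r under -0.5 form 2 opposed blocks, with median probe GC contents of 46.7% and 38.3%.

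Pairs of chaperone genes were set beside pairs of any genes. The median r of the 2485 pairs was 0.04, against 0.02 over all pairs of 20837 genes, and the share with an absolute r over 0.7 was 3.62%, against 3.37%. The 90 such pairs split into 48 that varied together and 42 that varied in opposition. The 10 highest pairs were Dnajb5 with Hspa12a (r = 0.87), Dnajb6 with Hspd1 (0.86), Dnajc9 with Hspe1 (0.86), Dnajb1 with Hsp90ab1 (0.85), Dnajc11 with Dnajc17 (0.85), Dnajc9 with Hspd1 (0.85), Dnajc5 with Hspbp1 (0.84), Dnajc13 with Hspa12b (0.84), Hsp90ab1 with Hspb2 (0.84) and Hspd1 with Hspe1 (0.84). The 5 lowest were Dnajc9 with Hsp90ab1 (-0.89), Hspb2 with Hspd1 (-0.89), Hspb6 with Hspd1 (-0.88), Dnajc9 with Hspa12a (-0.85) and Dnajb5 with Dnajc9 (-0.85). These points share the arrays and the slope above, and carry no test. After the slope was removed, r lay between 0.34 and 0.85 for the 10 highest pairs and between -0.71 and -0.48 for the 5 lowest. By class, the small heat shock proteins were the most alike, with a median r of 0.50 over 10 pairs. The median was -0.14 for the Hsf1 targets, 0.04 for the endoplasmic reticulum genes and -0.08 for the mitochondrial genes. After the slope was removed, the medians of these 4 classes in the same order were 0.35, 0.04, 0.14 and 0.08. With arrays centred within GC classes they were 0.41, 0.04, -0.06 and 0.06.

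Different probes of one gene did not always vary together. Of the 71 genes, 19 had more than 1 kept probe, with 24 further probes among them, and 6 of the 24 had a negative r with the chosen probe over the 18 samples. The second bright probe of Hsp90aa1 had r = -0.39 with the chosen one, and the 2 differed in their r with the GC slope (-0.75 and -0.00) and in GC content (35.0% and 41.7%). For Hsf1 the second probe had r = -0.29, with r = -0.76 and 0.60 with the slope at 35% and 55% GC. That second Hsf1 probe gave -0.04 for chronic against acute and 0.10 for acute against saline, where the chosen one gave 0.13 and -0.04. The other probes of Hspd1 had r = -0.10 and -0.09 with the chosen one, 1 other of Dnajb6 had -0.38, and 1 of 3 others of Hspa8 had -0.38 while the remaining 2 had 0.93 and 0.67. The second probe of Hspe1 had r = 0.88. For Hsp90ab1 the second bright probe had r = 0.28 with the chosen one. It had r = 0.02 with the slope at 50% GC, where the chosen one had 0.87 at 45% GC. The group differences of Hspd1 given above are those of its brightest probe, and the mean of its kept probes gave 0.13 for chronic against saline and 0.08 for chronic against acute, where that probe gave -0.01 and -0.07.

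Relations between 14 pairs of named genes were tested by permutation over the 18 samples, with Benjamini-Hochberg adjustment over the 14. The pair Hspd1 and Hspe1, which share the promoter shown above, was the only one called: r = 0.84 and rho = 0.84 over 18 samples, with a two-sided permutation p of 2e-05 and an adjusted p of 0.00028. Within slides r was 0.74, 0.95 and 0.88 over 8 arrays each. Both genes have low-GC probes (35.0% and 38.3%) and both had a negative r with the slope (-0.90 and -0.65). After the slope was removed r was 0.77, with arrays centred within GC classes it was 0.81, and without saline sample 4 it was 0.80. These values are those of the chosen Hspd1 probe, whose r with the other Hspd1 probes is given above. Leaving out the 2 samples farthest from the median of Hspd1 gave r = 0.80.

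**Figure D4:**
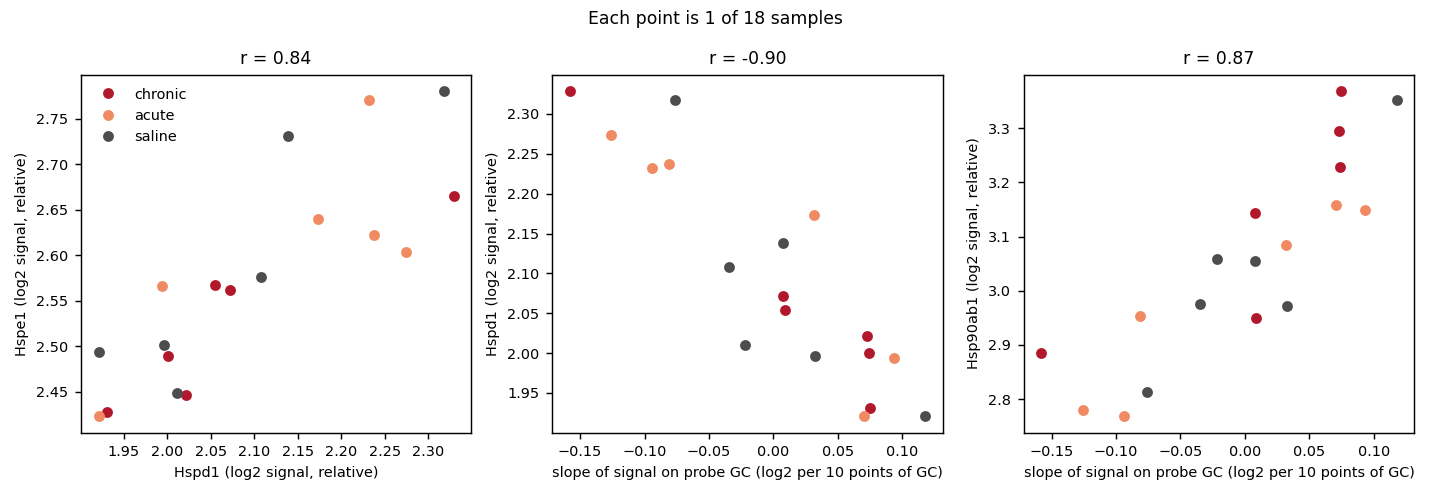
Value of Hspe1 against Hspd1 (left), of Hspd1 against the slope on probe GC content (middle) and of Hsp90ab1 against that slope (right), 1 point per sample, with chronic, acute and saline in colours. The points of the 3 groups mix within each panel, with r = 0.84, -0.90 and 0.87 over the 18 samples. Each gene is shown by its chosen probe.

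The other 13 pairs did not pass. Hsph1 had r = 0.52 with Dnajb1 (adjusted permutation p = 0.124), 0.47 with Hsp90aa1 (0.130) and -0.52 with Hspd1 (0.116). Its r was 0.36 with Hspb1, 0.17 with Dnaja1, 0.08 with Hspa5, -0.30 with Hspa8 and -0.42 with Bag3. For Dnajb1 the rank correlation was higher (rho = 0.68, adjusted permutation p = 0.0185), which would pass the threshold, but the pair was judged on Pearson's r. Without saline sample 4, r of Hsph1 with Hspb1 was 0.63, which passed the threshold, with Hspa5 0.34, with Bag3 0.06 and with Hspd1 -0.38. Over all 18 samples, r of Hsph1 with Hspb1 was 0.04 after the GC slope was removed. With arrays centred within GC classes it was 0.18. The sign for Hspa8 depended on the scaling, with r = 0.29 under quantile normalization. Hspa5 had r = 0.37 with Dnajc3, 0.34 with Dnajb9, 0.21 with Dnajb11 and 0.17 with Hsp90b1, and Hspd1 had r = 0.54 with Hspa9 (adjusted permutation p = 0.116).

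**Figure D5:**
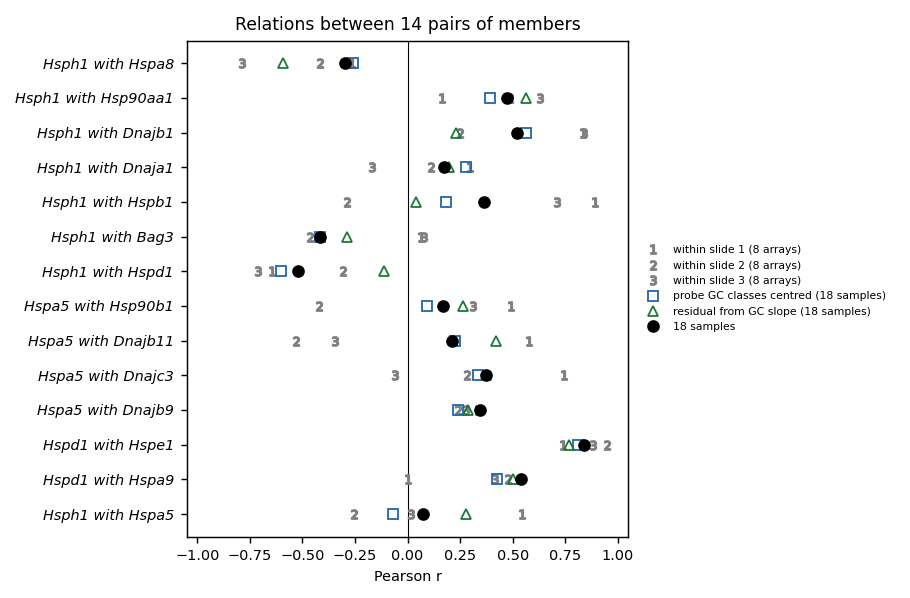
Pearson's r of 14 pairs of genes over 18 samples, with the values within each slide, with arrays centred within GC classes and after removal of the GC slope. Hspd1 with Hspe1 keeps r between 0.74 and 0.95 under all of them, and Hsph1 with Hspb1 lies between -0.29 and 0.89 within slides.

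The genes most like each of 3 members over the 18 samples, by Pearson's r among all genes with a symbol, were the following. For Hspa5 the closest was Manf (r = 0.81), which encodes a secreted protein of the endoplasmic reticulum stress response. It was at rank 1 of all genes, and at rank 3 when arrays were centred within GC classes. Then came Ocrl (0.79), Stk32a (0.77), Rttn (0.74), Tmco1 (0.73), Xpa (0.72), Pnn (0.72), Uggt2 (0.72), Has3 (0.72) and Upf3b (0.70). Of the unfolded protein response list, Xbp1 had r = 0.68 with Hspa5 (rank 28 of all genes) and Sdf2l1 had 0.61 (rank 169), whereas Hyou1 had 0.13 and Herpud1 had -0.12. Genes outside that list stood as near. The mitochondrial Hspa9 had r = 0.69 with Hspa5 (rank 26). Of the other Hsf1 targets and co-chaperones, Chordc1 had 0.67 (rank 43), Cacybp 0.66 (rank 52) and Ahsa1 0.63 (rank 109). For Hsph1 the closest were Prmt3 (0.90), Map2k6 (0.89), Nfs1 (0.89), Cnot10 (0.87), Sf3b3 (0.87), Brpf1 (0.86), Rnf44 (0.86), Unc79 (0.85), Dnmbp (0.85) and Pan2 (0.85), none of them in a chaperone list. With arrays centred within GC classes Nfs1 had r = 0.53 with Hsph1 (rank 2174), Cnot10 had 0.58 (rank 1619) and Brpf1 had 0.76 (rank 226), and Prmt3, Map2k6, Sf3b3 and Rnf44 had ranks 5, 2, 4 and 8. For Hspd1 they were Vhl (0.97), Ythdc1 (0.96), Rbm8a (0.96), Senp7 (0.96), Apbb1ip (0.95), Ppid (0.95), Hnrnph3 (0.95), Phax (0.95), Snx27 (0.95) and Specc1l (0.95). Hspe1 stood at rank 567 for Hspd1. The Hspd1 probe used here had r = -0.90 with the slope on probe GC content, and other Hspd1 probes had r = -0.10 and -0.09 with it.

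Some members moved with transcripts of neighbouring tissue. Dnajc12, a J protein that assists the aromatic amino acid hydroxylases, had r = 0.83 with the thalamus and septum list, or 0.66 without saline sample 4, and -0.81 with the striatal projection neuron list, or -0.60. Dnajb9 had r = 0.81 with the hypothalamus list, or 0.73 without that sample. Bag3 had r = 0.76 with the hypothalamus list, or 0.21, and Hspa1a had 0.70, or 0.17. Hspe1 had r = -0.77 with the cortical list, or -0.70, and Bag3 had -0.80, or -0.63. The mean level of the Hsf1 targets had r = -0.59 with the cortical list, 0.57 with the hypothalamus list and 0.53 with the share of spots above background. Of the 18 samples, saline sample 4 held the highest Hsf1 target level (0.91), the highest hypothalamus level (0.34) and the lowest cortical level (-4.18). The r values of the Hsf1 target level were not computed without it. The mean level of all 71 genes had r = 0.76 with the share of spots above background, which averaged 64.1% in chronic samples, 62.9% in acute samples and 60.5% in saline samples (SD 2.80, 7.27 and 5.67). The part of tissue composition and of that share in these values and in the counts of higher and lower genes was not tested.

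Outside the 71, 3 lists of related genes gave no called gene in any comparison. Of 27 other Hsf1 targets and co-chaperones, all measured, 13 were higher in chronic than in saline rats, 16 in acute than in saline rats and 13 in chronic than in acute rats. The smallest unadjusted p were those of Fkbp5, a co-chaperone of steroid receptors and a glucocorticoid target, for chronic against saline (0.26, SE 0.14, unadjusted p = 0.0832 by limma), of Bag5 for acute against saline (0.17) and of Ubb for chronic against acute (-0.16, unadjusted p = 0.0329 by limma). Of 14 subunits of the cytosolic chaperonin and prefoldin, 13 were measured, with 6, 6 and 7 higher in the 3 comparisons. Pfdn4, a prefoldin subunit, had the smallest unadjusted p for chronic against saline (-0.14, unadjusted p = 0.0494 by limma) and for chronic against acute (-0.16, unadjusted p = 0.0358 by limma). For acute against saline it was Pfdn6 (0.07). Of 22 genes of the unfolded protein response and folding in the endoplasmic reticulum, 21 were measured, with 10, 10 and 11 higher. Syvn1, a ubiquitin ligase of endoplasmic reticulum degradation, differed by 0.17 for chronic against saline, Herpud1 by -0.14 for acute against saline and P4hb, a disulfide isomerase, by 0.19 for chronic against acute (unadjusted p = 0.0477 by limma). All had adjusted p of at least 0.960 by limma.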

How the data were processed

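Total RNA of the left dorsal striatum was labelled with Cy3 and read on 24 one-colour Agilent arrays. Spots were read as an intensity (the processed signal), which Feature Extraction corrects for background and for trends across the array before any scaling between arrays, per the file headers. The headers name version 10.1.1.1 and the submitters' processing notes name 10.7. The authors' deposited value table holds log2 values in the same rank order as the processed signals; how it was made is not given in the sources used here. Probe coordinates are on rat build rn4, per the file headers.

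Each log2 signal was set against the 75th percentile of its array, without control spots or spots marked uneven or as outliers. Probes well above background on at least 50% of the arrays of a group were kept (26259 of 45598), and the kept probe with the highest mean stood for its gene, which gave 20902 genes. Arrays of a shared title letter from A to F, 2 pairs per group, were averaged to reach the 6 per group of the series design. The arrays titled with H, 4 per group, were kept single. The consensus correlation of the pairs was -0.366, so the arrays of a pair did not resemble each other as repeats of 1 sample would. The fit was limma 3.58.1 (lmFit, contrasts, eBayes, with 1 spread for the 3 groups). P-values were adjusted by Benjamini-Hochberg over every gene kept, with 0.05 as the threshold. A difference is the group named before "against" minus the one after it. Relations used two-sided permutation tests of 100000 permutations. The limma fit was tested on simulated data.

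The members, lists, pairs and alternatives were chosen with earlier results of these data known. The genes named follow a rule: 23 genes given whatever their values (22 were measured), the 5 with the smallest p per comparison and direction, the 10 most and 5 least variable, the 10 highest and 5 lowest pairs, the 10 nearest genes of Hsph1, Hspa5 and Hspd1, probes at odds with another of their gene, and the smallest p of each pathway list. The alternatives with probe GC content were chosen after seeing the data. Software was Python 3.11.15 with pandas 2.3.3, numpy 2.4.6, matplotlib 3.10.9 and scipy 1.17.1, and R 4.3.3 with statmod 1.5.0. The number of arrays limits the precision.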

Additional observations from a re-analysis of the deposited data

Results flagged for a closer look

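In 7 of 66 groups of 6 samples, over 22 named genes, the highest or lowest sample lay farther from the next than Dixon's limit allows, where chance gives about 1 in 20. Saline sample 4, the sample with hypothalamic and thalamic transcripts, was the highest of its group for Bag3 at -0.62 (next -1.38) and for Hspa1a at -2.76 (next -3.17). Hsph1 had 2 such groups: chronic sample 3 was highest at -0.95 (next -1.07) and acute sample 7 was lowest at -1.54 (next -1.24). Acute sample 3 was lowest for Dnaja1 at 0.89 (next 1.09). Chronic sample 1 was highest for Hspd1 at 2.33 (next 2.07). The mean of acute arrays 1 and 8 was highest for Hspa9 at 1.40 (next 1.28).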

How the results depend on the processing

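No gene and none of the 71 was called under any of the 33 alternatives to each comparison or the 32 to the F test. These were other normalizations, background corrections and filters, the authors' values, 24 arrays, the title letter or slide as a block, array weights, probe GC content and each sample left out in turn. No paired analysis was possible because the labels give no replicate numbers shared between groups. The median difference of the 71 genes for chronic against saline was 0.113 on slide 1 alone and -0.0154 on slide 3 alone, and for acute against saline it was 0.0996 on slide 1 alone. For chronic against acute it was 0.00914 with no filter on dim probes, -0.0569 on slide 2 alone and 0.00242 on slide 3 alone. The cause was not tested. Counts at an unadjusted p under 0.05 moved more. Among the 71, chronic against saline gave up to 14 and chronic against acute up to 17, both with array weights, and the title letter as a random block gave 6 and 8. Leaving out chronic sample 1 gave 6 and 5, and leaving out saline sample 7 gave 6 for chronic against saline. Over all genes, chronic against saline (599) gave 2298 with array weights, 1875 without saline sample 7, 1611 with normexp, 1075 with the letter block, 1061 with no filter and 356 without chronic sample 3. Chronic against acute (519) gave 4063 with array weights, 2114 with the letter block, 1360 without chronic sample 1 and 913 without acute sample 5, with a low of 307 without chronic sample 4. Acute against saline (333) gave 690 with the letter block, 662 with array weights and 602 without acute sample 2. With normexp 6733 genes were higher and 14169 lower for chronic against saline, against 11802 and 9100. Of the 14 relations, 3 were called with 24 arrays, 2 without saline sample 4 and 2 without the 2 samples farthest from the median, and Hspd1 with Hspe1 was among them each time.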
